A study of Homo sapiens with 36 samples.

Results

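The genes described here are 8 genes of leukotriene and prostaglandin synthesis, PLA2G4A, ALOX5AP, ALOX5, LTA4H, LTC4S, PTGS1, PTGS2 and PTGES, out of 15308 genes measured. They were chosen by their annotated gene symbols, with ALOX5AP and PTGES set against the other enzymes because of their measured signals in the same 12 groups, so their values are given as a description with no test. All 8 had a probe that passed the filter on dim probes. The brightest probe that passed stands for each gene. PTGS1 was the 1 member with 2 probes, and its second probe did not pass.

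The RNA came from NB4, a human cell line of acute promyelocytic leukaemia. Its PML-RARA fusion protein blocks maturation, and all-trans retinoic acid (ATRA) lifts that block so that the cells mature along the granulocyte line. Cells had received atorvastatin with ATRA (the combination), ATRA, atorvastatin or neither agent (control) for 8, 24 or 48 h, and the ATRA pretreatment lasted 1 h. Atorvastatin inhibits the enzyme that makes mevalonate, and the study's question was whether its effect on differentiation under ATRA goes with the induction of particular genes. There were 36 arrays, 3 in each of 12 groups, and the 3 of a group came from separate experiments run on different days. All rest on a single cell line, and the doses are not given in the sources used here.

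Leukotrienes and prostaglandins are signalling lipids made from arachidonate, which phospholipase A2 frees from membrane lipids. In the leukotriene branch, 5-lipoxygenase works with its activating protein at the nuclear membrane to make the unstable leukotriene A4, which LTA4H turns into the neutrophil attractant leukotriene B4 and LTC4S joins to glutathione. In the prostanoid branch, a cyclooxygenase makes prostaglandin H2, and PTGES then converts it to prostaglandin E2. Mature neutrophils are known for leukotriene B4, and macrophages for both branches.

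Each array reported 47293 probes, and signals are given as log2 values after background correction and quantile normalization. On that scale the 50th percentile of all probes was 6.33, the 75th was 6.61 and the 90th was 8.57. A gene near 6.33 cannot be told from background, and a change that starts there is compressed. The raw median intensity ran from 78.5 to 185.4, and the 6 arrays of experiment 1 that had no ATRA were the brightest, at 152.2 or more. The number of arrays, 3 a group, limits the precision of every value.

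The 2 libraries of experiment 1 labelled ATRA 24 h and atorvastatin 24 h go against their labels. The library labelled ATRA had a mean Pearson r across genes of 0.975 with the other ATRA arrays of that time and 0.986 with the control arrays. The library labelled atorvastatin had 0.987 with the ATRA arrays and 0.968 with the other atorvastatin arrays. Both were kept as labelled, and the 24 h differences of the members that rest on them are given with and without them. Leaving them out does not move a group mean at 8 or 48 h, but it changes the standard errors, because all groups share 1 estimate of the spread. Most standard errors and adjusted p values of the genes outside the members are given with all arrays only.

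Of the promyelocyte markers, MPO, PRTN3, CTSG and AZU1 lay above the 90th percentile in all 12 groups, whereas ELANE lay between 6.37 and 6.89 and CD33 was not measured. Of the mature granulocyte list, NCF1, ITGAM and CSF3R were detected, while FCGR3B, MMP8 and LTF never exceeded the 75th percentile. All 5 megakaryocyte and platelet markers and all 3 measured erythroid markers also stayed below that percentile in every group. Of the monocyte list, CD14 had no group mean above 6.40, while CSF1R ran from 7.65 to 9.33. Of the lymphoid list, CD3D ran from 9.28 to 10.37 and CD79A from 6.66 to 9.09.

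The sequences upstream of ALOX5AP and PTGES are shown because these 2 members had the widest ranges of signal over the groups. Both windows are RefSeq sequences of the build GRCh38.p14 and run from 250 bases before to 50 bases after the start of the gene, written 5′ to 3′ along the gene's own strand. The ALOX5AP window is chr13:30713235-30713534 on the plus strand and the PTGES window is chr9:129752993-129753292 on the minus strand. Capitals mark matches on either strand to the motifs searched.
ALOX5AP: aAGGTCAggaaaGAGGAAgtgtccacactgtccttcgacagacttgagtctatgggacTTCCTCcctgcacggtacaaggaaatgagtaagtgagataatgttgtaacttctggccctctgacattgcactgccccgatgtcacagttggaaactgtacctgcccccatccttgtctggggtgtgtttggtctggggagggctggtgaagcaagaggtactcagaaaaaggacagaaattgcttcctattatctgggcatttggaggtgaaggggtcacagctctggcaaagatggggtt
PTGES: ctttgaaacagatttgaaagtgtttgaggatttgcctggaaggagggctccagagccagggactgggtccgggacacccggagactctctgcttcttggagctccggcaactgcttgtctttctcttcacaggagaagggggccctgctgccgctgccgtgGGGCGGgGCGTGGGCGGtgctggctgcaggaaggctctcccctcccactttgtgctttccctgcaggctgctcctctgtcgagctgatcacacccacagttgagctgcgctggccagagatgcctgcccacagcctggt
The motifs searched were AGGTCA, the nuclear receptor half-site, TTGCNNCAA for C/EBP, GAGGAA for ETS factors of the PU.1 type, GGGCGG for Sp1, GCGNGGGCG for EGR1 and TATAAA, the TATA box. The ALOX5AP window held AGGTCA at 249 bases before the start and GAGGAA at 238 bases and, on the other strand, at 192 bases before it. Of 35116 RefSeq windows of the same length, 13.8% held AGGTCA and 27.9% held GAGGAA. The PTGES window held GGGCGG at 89 and 78 bases before the start and GCGNGGGCG at 82 bases, a match that overlaps the second GGGCGG. Over all windows, 45.0% held GGGCGG and 9.43% held GCGNGGGCG. Neither window held a C/EBP match, which 1.98% of all windows did, or TATAAA, which 11.5% did. The 2 windows thus shared none of the 6 motifs, and the GC content was 50.3% for ALOX5AP and 61.7% for PTGES, against a median of 58.7% over all windows. Of the other members, the LTC4S window held 2 GAGGAA and 1 GGGCGG, the 2 PTGS1 windows held 1 GGGCGG each and the first of them also TATAAA, and the PTGS2 window held TATAAA. The PLA2G4A and LTA4H windows held none of the 6, and ALOX5 had no window to read. A match is a description of these letters only.

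ALOX5AP, which encodes the 5-lipoxygenase activating protein that presents arachidonate to the enzyme, had the widest range of the 8 genes, with group means from 6.50 to 14.21 without the 2 libraries. At 8 h its signals were 9.67, 9.99 and 9.62 in the combination, 9.86, 10.37 and 9.95 with ATRA, 6.98, 7.16 and 7.001 with atorvastatin and 6.95, 7.05 and 7.01 in control cells. All 6 arrays with ATRA lay above all 6 without it, and the combination overlapped ATRA alone. At 48 h the signals were 13.92, 13.92 and 14.80 in the combination, 12.92, 13.31 and 13.88 with ATRA, 7.56, 7.56 and 7.80 with atorvastatin and 6.26, 6.63 and 7.04 in control cells. Every array of the combination was above every array of ATRA alone at 48 h, and every atorvastatin array was above every control array.

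At 24 h ALOX5AP signals were 12.41, 12.18 and 12.54 in the combination, and the control arrays had 6.69, 6.59 and 6.85. The arrays labelled ATRA had 12.33 and 12.49 in experiments 2 and 3 and 6.73 in experiment 1. The arrays labelled atorvastatin had 6.37 and 6.64 in experiments 2 and 3 and 12.36 in experiment 1. Each of the 2 libraries thus lay within the range of the arms that its label does not name.

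ALOX5AP was higher with ATRA than in control cells by 3.06 ± 0.97 at 8 h and 6.73 ± 0.97 at 48 h (log2 difference ± SE, n = 3 arrays a group), the second being 106-fold on the signal scale. At 24 h the difference was 3.81 ± 0.97 with all arrays and 5.70 ± 0.23 without the 2 libraries. The standard error at 8 and 48 h was 0.21 without them. Adding atorvastatin to ATRA gave a difference from ATRA alone of -0.30 at 8 h and 0.84 ± 0.97 at 48 h, or 0.84 ± 0.21 without the 2 libraries. Atorvastatin alone gave 0.04 at 8 h and 1.00 ± 0.97 at 48 h against control. The atorvastatin effect at 48 h with ATRA minus that without it was -0.16 ± 1.37, or -0.16 ± 0.29 without the 2 libraries. The control arrays of ALOX5AP at 48 h lie near the probe median, so the effect without ATRA is compressed.

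Of the mature granulocyte markers, NCF1, ITGAM and CSF3R had higher means with ATRA than in control cells at 48 h, while FCGR3B, MMP8 and LTF stayed below the 75th percentile. The log2 of the summed signal of that list at 48 h was 15.00 in the combination, 14.25 with ATRA, 10.55 with atorvastatin and 10.39 in control cells. NCF1 carried most of it, a gene whose near-identical pseudogenes its probe may also read. Some markers of other cells moved in these groups too. CSF1R was at 9.02 in the combination, 8.07 with ATRA, 8.25 with atorvastatin and 7.65 in control cells. CD79A was at 9.07, 8.93, 6.76 and 6.72 in the same order. CD3D, of the same lymphoid list, went the other way, at 9.72, 9.28, 10.37 and 10.13. The other measured monocyte and lymphoid markers, CD14, MRC1, MARCO and MS4A1, stayed below the 75th percentile in every group. Fewer cells of a type and less RNA per cell cannot be told apart in such samples, and the part of these markers in the values of the 8 genes was not tested.

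PTGES encodes the microsomal prostaglandin E synthase that acts after a cyclooxygenase. At 8 h its signals were 7.08, 7.57 and 7.29 in the combination, 7.48, 7.71 and 7.29 with ATRA, 6.57, 6.31 and 6.58 with atorvastatin and 6.80, 6.04 and 6.55 in control cells. The ATRA arrays were all above the control arrays at 8 h, and the arms that differ only in atorvastatin overlapped. At 48 h they were 11.79, 11.60 and 11.80 in the combination, 9.76, 9.38 and 9.45 with ATRA, 6.18, 6.24 and 6.34 with atorvastatin and 6.996, 6.68 and 6.65 in control cells. The combination lay above ATRA, and both lay above the arms without ATRA. The atorvastatin and control arrays did not overlap, but both lie near the probe median, so their order cannot be read.

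At 24 h PTGES was at 9.43, 9.31 and 9.82 in the combination and at 6.57, 6.50 and 6.40 in control cells. The library labelled ATRA in experiment 1 had 6.64, against 8.89 and 8.69 in the other ATRA arrays, and the library labelled atorvastatin in that experiment had 8.81, against 6.39 and 6.53. The combination lay above all ATRA arrays at 24 h, also without the library of experiment 1.

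PTGES was higher with ATRA than in control cells by 1.03 ± 0.40 at 8 h and 2.75 ± 0.40 at 48 h, and at 24 h by 1.58 ± 0.40, or 2.30 ± 0.18 without the 2 libraries. Atorvastatin on top of ATRA gave a further 1.45 ± 0.40 at 24 h, or 0.73 ± 0.18 without the 2 libraries, and 2.20 ± 0.40 at 48 h. Against control, the combination at 48 h was higher by 4.95 ± 0.40, which is 31.0-fold. Atorvastatin alone differed from control by 0.02 ± 0.40 at 8 h and by -0.52 ± 0.40 at 48 h, with an SE of 0.16 without the 2 libraries. The atorvastatin effect with ATRA minus that without ATRA was 2.73 ± 0.57 at 48 h, or 2.73 ± 0.23 without the 2 libraries, of which the part without ATRA rests on signals near background.

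**Figure D1:**
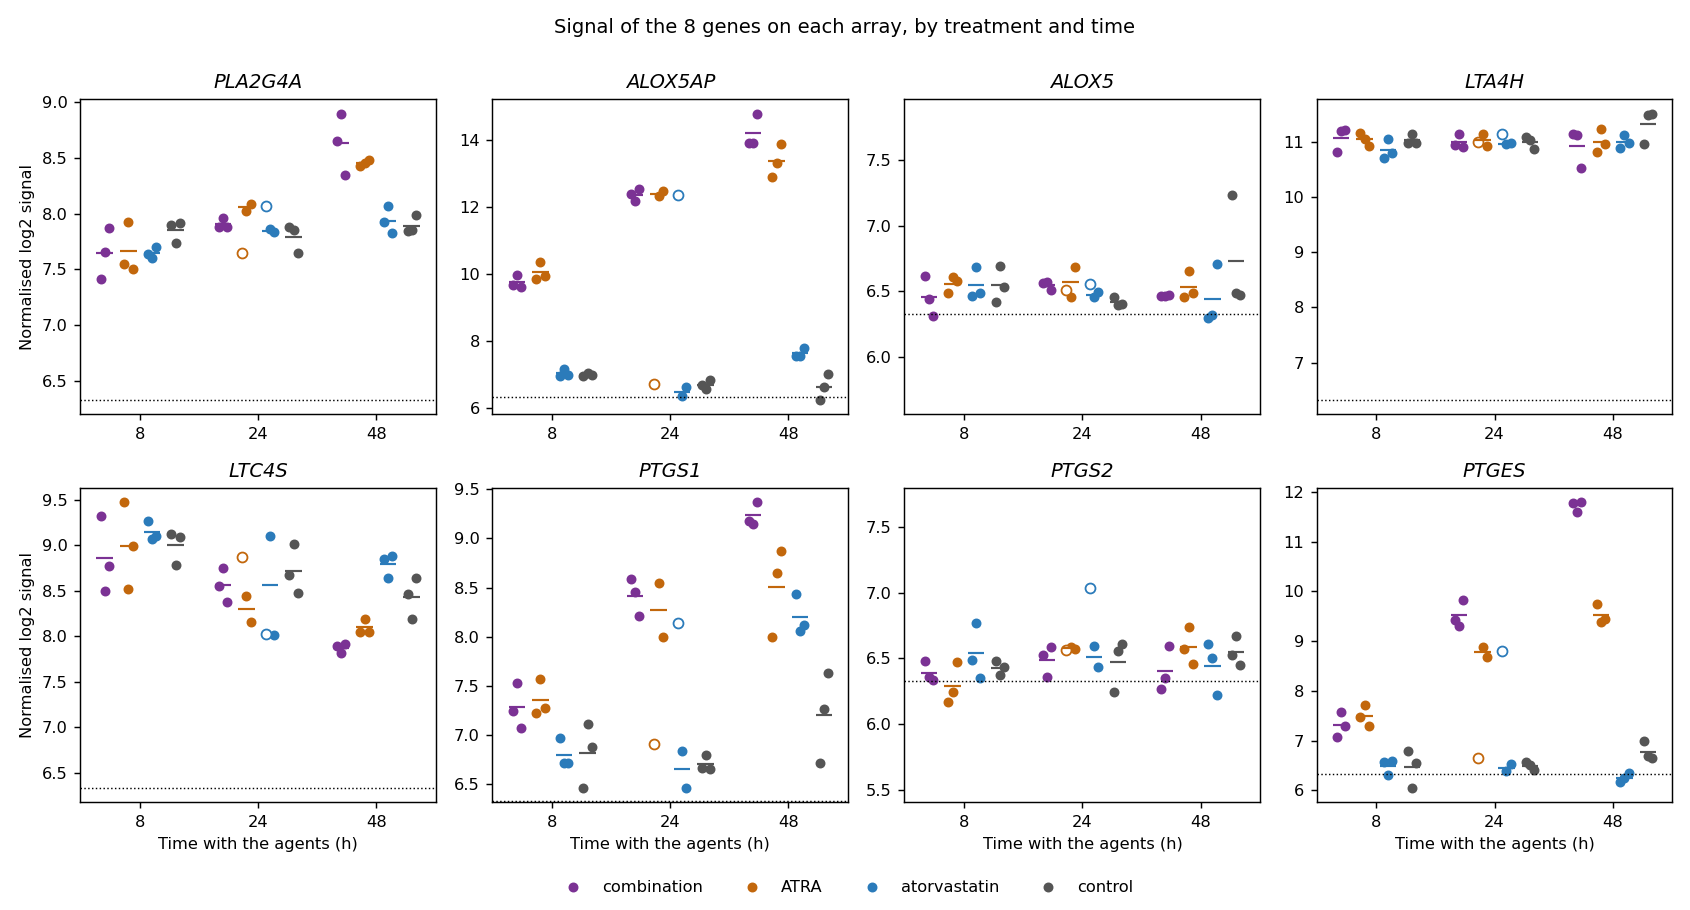
Normalised log2 signal of each of the 8 genes (y axis, own range in each panel) on each array, by time (x axis, 8, 24 and 48 h) and within a time in the order combination, ATRA, atorvastatin and control. Points are arrays, short lines are group means without the 2 libraries that go against their labels, open circles are those libraries, and the dotted line is the probe median of 6.33. ALOX5AP and PTGES reach 14.80 and 11.80 in the combination at 48 h, while ALOX5 and PTGS2 stay at 7.23 or below on every array.

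Arrays were also set against each other within an experiment, told from the runs of title numbers, a pairing that the labels do not state and that the arrays' deviations bore out only in part. For PTGES at 48 h, the atorvastatin effect with ATRA was 2.03, 2.22 and 2.35 in experiments 1, 2 and 3, and without ATRA it was -0.82, -0.44 and -0.31. It was thus above 0 in 3 of 3 experiments with ATRA, and the values without ATRA compare signals near background. For ALOX5AP at 48 h, the effect was 1.00, 0.61 and 0.92 with ATRA and 1.30, 0.93 and 0.76 without it, above 0 in all of them. At 8 h every ALOX5AP effect with ATRA was slightly below 0, from -0.38 to -0.20, and with median scaling their mean was -0.08. At 24 h, experiments 2 and 3 gave PTGES effects of 0.42 and 1.13 with ATRA and -0.11 and 0.12 without it.

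**Figure D2:**
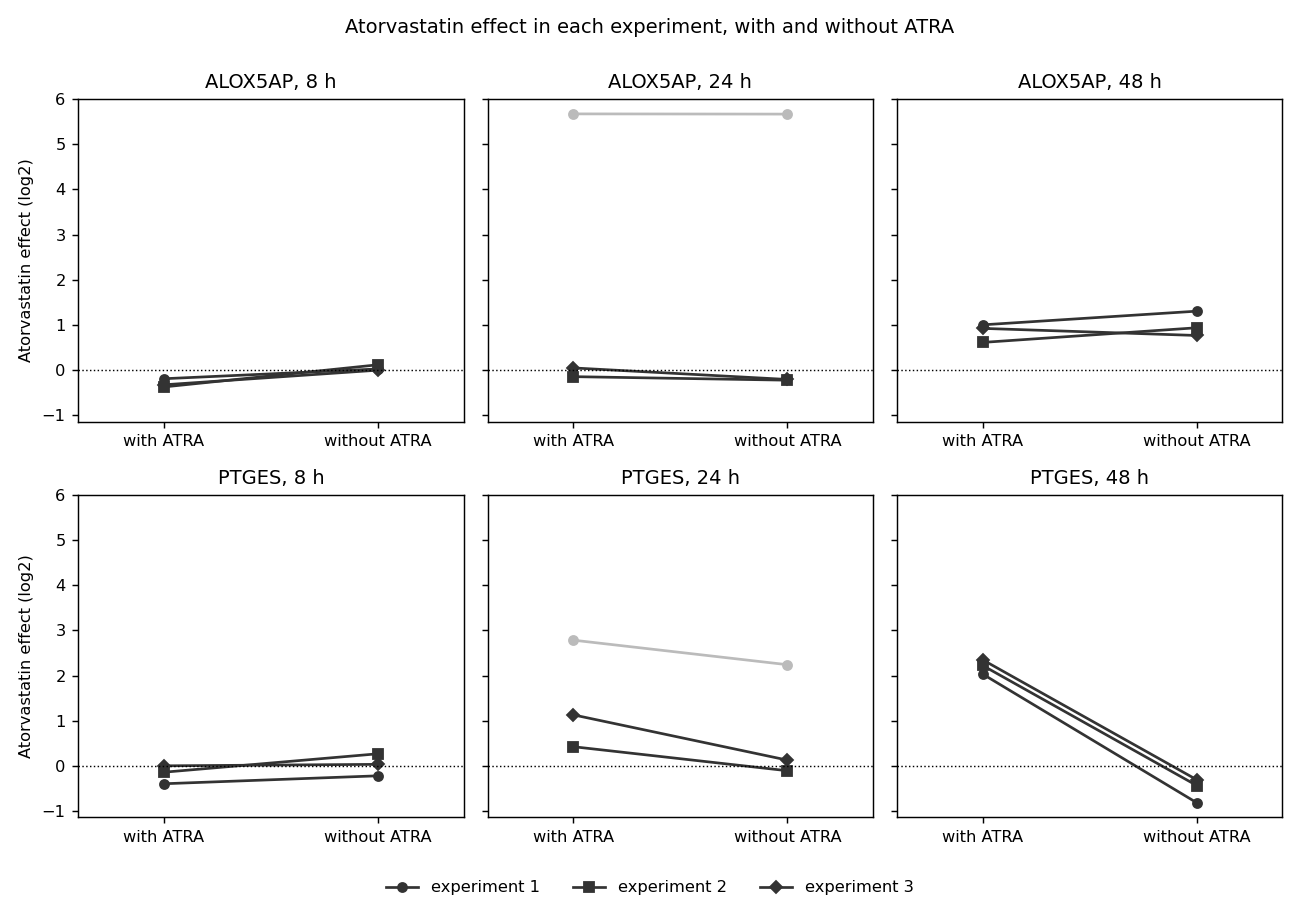
Atorvastatin effect on the log2 signal (y axis) of ALOX5AP (upper row) and PTGES (lower row) at 8, 24 and 48 h, with ATRA (combination minus ATRA) and without ATRA (atorvastatin minus control). Each line joins the values of 1 experiment, and the grey line at 24 h is experiment 1, which holds both libraries that go against their labels. At 48 h every PTGES line is above 2 with ATRA and below 0, at signals near background, without it, whereas the ALOX5AP lines stay above 0 on both sides.

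PLA2G4A, the cytosolic phospholipase A2 that frees arachidonate, was separated by ATRA at 48 h. Its signals then were 8.65, 8.90 and 8.35 in the combination, 8.42, 8.46 and 8.48 with ATRA, 7.92, 8.06 and 7.82 with atorvastatin and 7.84, 7.85 and 7.98 in control cells. The 6 arrays with ATRA lay above the 6 without it, and adding atorvastatin made no separation on either side. The difference from control was 0.74 ± 0.14 for the combination and 0.56 ± 0.14 for ATRA, against 0.05 ± 0.14 for atorvastatin. With median scaling the combination differed from control by 1.15 and ATRA by 0.69. At 8 h the combination and ATRA were at -0.20 ± 0.14 and -0.19 ± 0.14 from control, with overlapping arrays, and atorvastatin was at -0.20 ± 0.14, below all control arrays.

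ALOX5, the 5-lipoxygenase itself, stayed near the probe median in all groups, with arrays from 6.29 to 7.23 and group means that spanned 0.31. The highest array was the control of experiment 1 at 48 h, at 7.23, and the next was at 6.71. Neighbouring groups in the order of its means overlapped throughout. The single ALOX5 probe therefore gave no signal that could be told from background, which is not a measurement of absence.

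LTA4H, which makes leukotriene B4 from leukotriene A4, was bright in every group, with arrays from 10.52 to 11.51. At 48 h it had 11.15, 11.12 and 10.52 in the combination, 10.82, 11.24 and 10.95 with ATRA, 10.89, 11.13 and 10.98 with atorvastatin and 10.97, 11.49 and 11.51 in control cells. All 4 groups overlapped, and the combination differed from control by -0.39 with quantile normalization and by -0.01 with median scaling. Its group means spanned 0.47 over the 12 groups, and no neighbours in their order were separated.

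LTC4S, which joins leukotriene A4 to glutathione, had its lowest group mean in the combination at 48 h. Signals were 7.89, 7.82 and 7.91 in the combination, 8.05, 8.19 and 8.05 with ATRA, 8.84, 8.64 and 8.88 with atorvastatin and 8.46, 8.19 and 8.64 in control cells. The combination lay below all other groups of that time. Atorvastatin lay above control on all arrays, but only just: its lowest array was at 8.6437 and the highest control array at 8.6432. The difference was -0.56 ± 0.23 for the combination against control, -0.91 ± 0.23 for the combination against atorvastatin and 0.36 ± 0.23 for atorvastatin against control. These sizes depended on the scaling: with median scaling the combination differed from control by -0.16, from atorvastatin by -0.37 and from ATRA by 0.05, where quantile normalization gave -0.22. Beside it, the summed signal of the 5 measured mast cell, basophil and eosinophil markers at 48 h was 10.72 in the combination, 10.58 with ATRA, 12.48 with atorvastatin and 12.68 in control cells. PRG2 carried most of that sum, while CPA3 and EPX stayed below 6.40, and the part of these markers in the LTC4S values was not tested.

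PTGS1, the constitutive cyclooxygenase, had the next largest differences with quantile normalization. At 48 h it was at 9.18, 9.15 and 9.37 in the combination, 8.00, 8.65 and 8.87 with ATRA, 8.43, 8.06 and 8.12 with atorvastatin and 6.72, 7.26 and 7.63 in control cells. The combination was above all other arrays of that time, ATRA and atorvastatin overlapped each other, and both were above control. Against control the differences were 2.03 ± 0.31 for the combination, 1.30 ± 0.31 for ATRA and 1.00 ± 0.31 for atorvastatin. At 24 h the combination was higher than control by 1.71 ± 0.31, and ATRA by 1.11 ± 0.31, or 1.57 ± 0.23 without the 2 libraries. The second PTGS1 probe did not pass the filter on dim probes, with group means from 5.93 to 6.19, so the change rests on 1 probe.

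PTGS2, the inducible cyclooxygenase, had arrays from 6.17 to 7.04 and group means that spanned 0.30. Its highest array, 7.04, was the library labelled atorvastatin 24 h in experiment 1. All neighbouring groups overlapped, and no treatment separated it from background at these times. The platelet markers, given above, stayed below the 75th percentile beside PTGS1 and the thromboxane synthase TBXAS1.

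**Figure D3:**
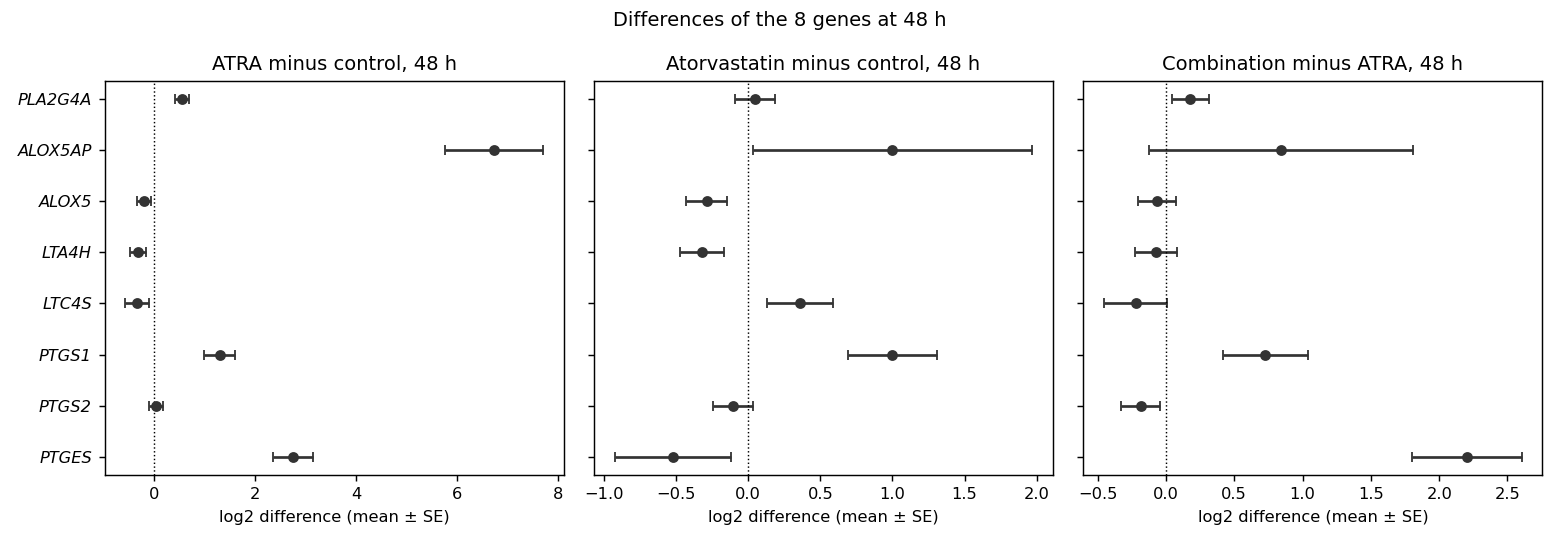
Log2 difference at 48 h (x axis, point and SE from the fit, n = 3 arrays a group) of the 8 genes (rows) for ATRA minus control, atorvastatin minus control and combination minus ATRA, each panel with its own x range. ALOX5AP at 6.73 and PTGES at 2.75 lie farthest from 0 for ATRA, and PTGES at 2.20 lies farthest from 0 for the combination against ATRA.

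Read against all genes, ATRA at 48 h changed 8.00% of the 15308 genes at an adjusted p of 0.05 (limma, Benjamini-Hochberg), and 4 of the 8 members, ALOX5AP, PTGES, PTGS1 and PLA2G4A, were among them. With the combination the share of all genes was 20.3%, and the same 4 members were among them. For the combination against ATRA it was 6.40% and 1 member, PTGES, or 7.60% and 3 members without the 2 libraries. For atorvastatin it was 0.771% and 0 members, or 1.71% and 2 members without the 2 libraries. For the combination against atorvastatin it was 14.8% and 5 members, 4 higher and LTC4S lower. The members were chosen with earlier results of these data known, ALOX5AP and PTGES were set apart on these contrasts, and the contrasts share arrays. These counts are thus no test of the members, and nothing is read from them.

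As a description of likeness, the genes whose 12 group means followed ALOX5AP most closely, among 1467 genes spanning at least 1, were TNFRSF14 (Pearson r = 0.997), ARHGAP9 (0.995), FGR (0.994), LY6E (0.993) and CCDC88B (0.992). TNFRSF14 is a receptor of the TNF receptor family and FGR a Src-family kinase of myeloid cells. FGR had 48 h means of 11.37 in the combination, 10.78 with ATRA, 6.26 with atorvastatin and 6.23 in control cells. The genes closest to PTGES were CTSD (0.990), TLE4 (0.987), DUSP5 (0.986), ANKRD33 (0.984) and TGM2 (0.982). CTSD, the lysosomal protease cathepsin D, had 48 h means of 11.04 in the combination, 9.97 with ATRA, 7.65 with atorvastatin and 7.63 in control cells. For each of the 2 genes, 4 of the 5 names were also among the closest 5 without the 2 libraries. Over the 36 arrays in place of the group means, 4 of the 5 remained for ALOX5AP and 2, CTSD and TGM2, for PTGES. ALOX5AP and PTGES had an r of 0.940 with each other over the group means without those libraries, which put PTGES at rank 129 among the genes most like ALOX5AP. All points come from the same 36 arrays.

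Genes of the pathway outside the 8 members were tested, and 52 of the 60 listed were measured. That list too was drawn up with earlier results of these data known. Its counts beside the shares of all genes are therefore a description. At 8 h, where ATRA changed 1.42% of all genes, 1 of the 52 passed, MGST2, at 0.69 ± 0.18 (limma, adjusted p = 0.0445). That call ended in 8 of 9 fits that left out an array or experiment, and also with median scaling and with the authors' values. Without the 2 libraries ATRA at 8 h changed 2.67% of all genes and 4 of the 52. At 24 h ATRA changed 0.581% of all genes and 0 of the 52 in limma, with 6 of the 52 at an unadjusted p under 0.05, or 4.08% and 4 of the 52 without the 2 libraries. The combination at 24 h changed 6.04% of all genes and 5 of the 52, or 7.63% and 9 of the 52 without the 2 libraries. Of the 5, COTL1, MGST2 and PTGER1 rose and MGST1 and SLCO2A1 fell, and none of the 5 passed when the 24 h arrays were fitted alone. PTGER1 had no group mean above 6.49, and SLCO2A1 in the combination was at 6.35, so both rest on signals near the probe median.

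At 48 h ATRA changed 9 of the 52, against 8.00% of all genes, with 4 higher and 5 lower, and the median of the 52 was 0.02, against -0.01 for all genes. Without the 2 libraries the share of all genes was 9.56% and 10 of the 52 passed. The combination changed 17, against 20.3% of all genes, with 11 higher and 6 lower, at a median of 0.01 against -0.01. Without the 2 libraries it changed 18 of the 52, and 3277 of the 15308 genes. The counts by role given below are of few genes, and are to be set against 20.3% for the combination and 8.00% for ATRA. Of the 17, 8 passed in both contrasts, which share the control arrays. Atorvastatin alone changed 0 of the 52 in limma, against 0.771% of all genes. At an unadjusted p under 0.05 there were 6 of the 52, and 1722 of the 15308 genes.

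Among enzymes that free or store arachidonate, 3 of 11 measured rose in the combination at 48 h and none passed with ATRA. ACSL1, an acyl-CoA synthetase, rose by 1.09 ± 0.25 (limma, adjusted p = 0.00121) in the combination, and was at 0.22 ± 0.25 with ATRA. MBOAT7, which puts arachidonate into phosphatidylinositol, rose by 0.90 ± 0.17, and PLA2G15, a lysosomal phospholipase, by 0.57 ± 0.12. Against ATRA alone, ACSL1 rose by 0.87 ± 0.25 and PLA2G15 by 0.44 ± 0.12 in the combination. Both of these calls ended in 6 of 9 fits that left out an array or experiment, and that of ACSL1 also with the authors' values.

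Among the other lipoxygenases and the partner of 5-lipoxygenase, 1 of 6 passed, COTL1, the coactosin-like protein that binds 5-lipoxygenase. COTL1 signals at 48 h were 13.71, 13.49 and 13.70 in the combination, 13.68, 13.38 and 13.77 with ATRA, 11.73, 11.41 and 11.83 with atorvastatin and 11.56, 11.99 and 12.001 in control cells. The arms with ATRA were clear of those without it and overlapped each other. COTL1 rose by 1.78 ± 0.36 in the combination (limma, adjusted p = 0.000345) and by 1.76 ± 0.36 with ATRA (adjusted p = 0.00119). ALOX12, ALOX12B, ALOX15 and ALOX15B had no group mean above 6.76.

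Of the 3 other enzymes of the family of LTC4S and PTGES, MGST2, which can also make leukotriene C4, rose by 0.73 ± 0.18 in the combination and 0.86 ± 0.18 with ATRA at 48 h. MGST1, a microsomal glutathione transferase, fell by 0.85 ± 0.20 on the log2 scale in the combination, and MGST3 by 1.03 ± 0.20 with ATRA. MGST3 in the combination was at -0.50 ± 0.20, which did not pass.

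Of 8 other prostanoid synthases, 4 passed in the combination at 48 h. TBXAS1, the thromboxane synthase, rose by 0.47 ± 0.16 and AKR1C3, a prostaglandin F synthase, by 0.66 ± 0.19. The other prostaglandin E synthases PTGES2 and PTGES3 fell by 0.54 ± 0.19 (limma, adjusted p = 0.0361) and by 0.46 ± 0.17 (adjusted p = 0.0481). With median scaling they were at -0.15 and -0.09, and both calls ended there and with the 48 h arrays alone, and in 7 and 6 of 9 fits that left out an array or experiment. With ATRA only AKR1C3 passed, at 0.60 ± 0.19, a call that ended in 8 of 9 such fits. In the combination the call of TBXAS1 ended in 6 of 9 and that of AKR1C3 in 2 of 9. PTGDS, HPGDS and PTGIS, the synthases of prostaglandin D2 and prostacyclin, had no group mean above 6.46.

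Of 8 genes of leukotriene and prostanoid breakdown, 3 rose in the combination. CYP4F3, the hydroxylase that inactivates leukotriene B4 in neutrophils, was at 7.95, 8.32 and 9.34 in the combination, 8.54, 8.67 and 9.12 with ATRA, 7.79, 6.40 and 6.73 with atorvastatin and 7.57, 6.35 and 7.02 in control cells. It rose by 1.56 ± 0.36 in the combination and 1.80 ± 0.36 with ATRA. GGT5 and DPEP2, which trim leukotriene C4 and D4, followed another order. GGT5 had 8.25, 8.33 and 8.32 in the combination, 7.22, 7.44 and 7.73 with ATRA, 6.91, 7.53 and 7.68 with atorvastatin and 7.58, 7.64 and 7.09 in control cells, so that only the combination lay clear of the other groups of that time. GGT5 rose by 0.84 ± 0.18 in the combination against ATRA (limma, adjusted p = 0.00216).

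DPEP2 signals at 48 h were 7.01, 6.86 and 6.91 in the combination, 5.99, 6.24 and 5.81 with ATRA, 6.42, 6.43 and 6.50 with atorvastatin and 6.44, 6.48 and 6.57 in control cells. DPEP2 fell with ATRA by 0.48 ± 0.14 and rose in the combination by 0.43 ± 0.14 against control, all near the probe median. These 2 calls ended in 7 and 6 of 9 fits that left out an array or experiment. The atorvastatin effect on DPEP2 was larger with ATRA than without it by 0.96 ± 0.20 (limma, adjusted p = 0.00933). The call for that difference ended when any of the 3 experiments was left out, with differences of 0.91, 1.10 and 0.86 without experiments 1, 2 and 3.

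Both measured transporters passed as lower at 48 h. SLCO2A1, the prostaglandin uptake carrier, was at 6.25, 6.34 and 6.37 in the combination, 6.52, 6.64 and 6.65 with ATRA, 6.50, 7.14 and 7.34 with atorvastatin and 7.29, 7.41 and 7.78 in control cells. The combination was below all other arrays of that time, and the control arrays overlapped only atorvastatin. SLCO2A1 fell by 1.18 ± 0.19 in the combination (limma, adjusted p = 1.48e-05) and by 0.89 ± 0.19 with ATRA, and ABCC4, a prostaglandin exporter, fell by 0.50 ± 0.12 and 0.40 ± 0.12 in the same contrasts. With median scaling ABCC4 was at -0.25 and -0.31, and neither call held there or with the authors' values. The ABCC4 call with ATRA also ended with the 48 h arrays alone and in 7 of 9 fits that left out an array or experiment.

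Of 5 leukotriene and lipoxin receptors measured, FPR2, the receptor of lipoxin A4 and formyl peptides, passed. Its signals at 48 h were 8.17, 8.23 and 7.32 in the combination, 6.64, 6.32 and 6.71 with ATRA, 6.53, 6.13 and 6.53 with atorvastatin and 6.26, 6.30 and 6.39 in control cells. The combination was above every other array, and the other arms lay near the probe median. FPR2 rose by 1.35 ± 0.16 in the combination against ATRA (limma, adjusted p = 5.69e-07). The atorvastatin effect on FPR2 with ATRA exceeded that without it by 1.27 ± 0.23 (limma, adjusted p = 0.00323), a call that ended when the 48 h arrays were fitted alone and without experiment 1 (1.27) or experiment 2 (0.86). LTB4R and CYSLTR2 had no group mean above 6.47. Of 9 prostanoid receptors, PTGER4 fell by 0.66 ± 0.17 in the combination and 0.61 ± 0.17 with ATRA at 48 h, and the other 8 did not pass at that time.

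**Figure D4:**
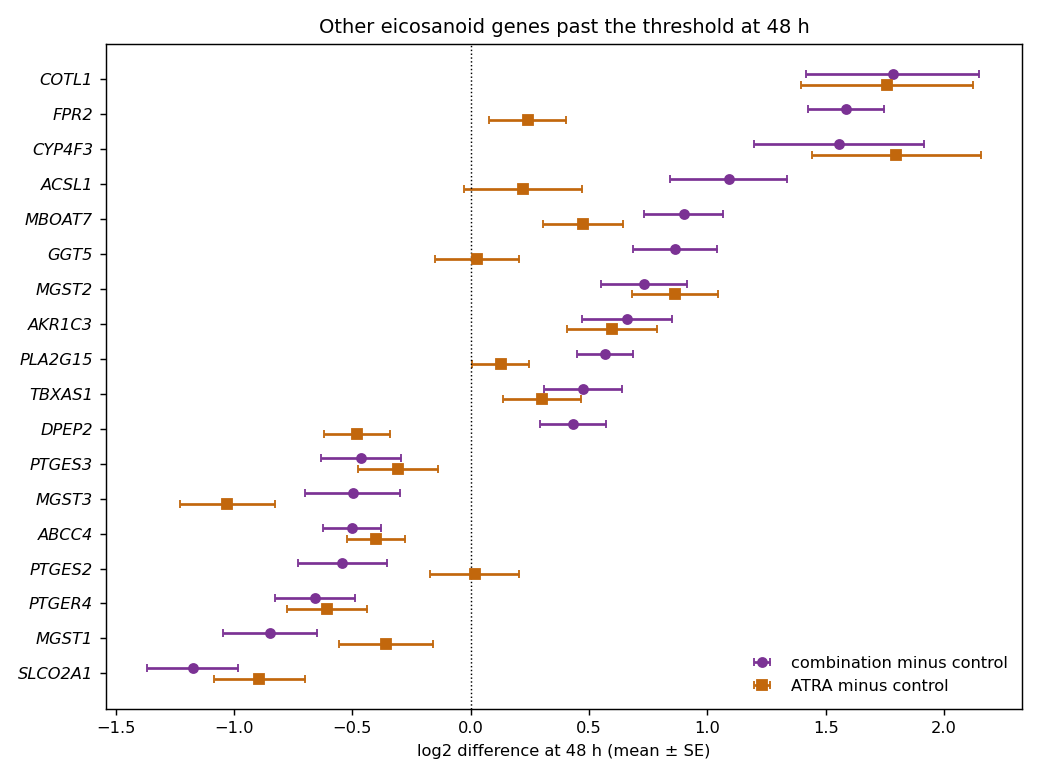
Log2 difference at 48 h (x axis, point and SE from limma, n = 3 arrays a group) of the 18 pathway genes outside the 8 members (rows) that passed in the combination or with ATRA. Circles are combination minus control and squares are ATRA minus control. FPR2, ACSL1 and GGT5 lie at 1.58, 1.09 and 0.86 in the combination and at 0.24, 0.22 and 0.03 with ATRA, whereas COTL1 and CYP4F3 lie above 1.5 in both.

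The balance of these calls depended on the scaling. In the combination against control at 48 h, 11 of 11 rises and 1 of 6 falls, that of SLCO2A1, were still past the threshold with median scaling, and with ATRA 4 of 4 rises and 2 of 5 falls were. The falls of MGST1, PTGES2, PTGES3, ABCC4 and PTGER4 in the combination were thus not past the threshold with median scaling, although none of them changed sign. Over all genes, the share of calls that were higher was 47.5% in the combination and 50.5% with ATRA, and with median scaling it was 87.8% and 80.7%. Of the 17 calls in the combination, 7 held whichever array or experiment was left out, and of the 9 with ATRA 2 did, COTL1 and MGST3. For the combination against ATRA 2 of 5 calls held in every such fit, those of DPEP2 and FPR2. Median scaling moved the median difference of all genes to 0.10 in the combination and 0.04 with ATRA.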

How the data were processed

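RNA of 36 NB4 cultures was measured on 1-colour Illumina Sentrix Human-6 BeadChips. Per the labels, BeadStudio 1.3.1.5 gave the authors a mean bead signal with no background removed, so each deposited intensity is a linear, unnormalized value. The authors' deposited table of log2 values served as an alternative. Each of its 36 columns matched its own array best, with medians of 6.68 to 6.69, and its normalization is not given in the sources used here.

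Intensities were corrected by normexp (offset 50) and quantile normalized with limma 3.58.1 in R 4.3.3. Probes above the median of their array on 3 or more arrays were kept (41648 of 47293). A single gene symbol was given for 18468 probes and none for 28825, and the brightest probe stood for each gene. No 2 arrays were identical. The r between arrays of a group was 0.969 to 0.993 without the 2 libraries described above.

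One model with 12 group means was fitted to all arrays as labelled (24 residual degrees of freedom), and limma's two-sided test was run on 18 contrasts at 0.05, adjusted by Benjamini-Hochberg across 15308 genes. Experiments were told apart by runs of 12 title numbers. The members, gene lists and markers were chosen with earlier results of these data known. Named are all members, up to 3 rising and 3 falling pathway genes for each role and contrast past the threshold, the 5 genes most like ALOX5AP and PTGES, and markers; pathway genes near background were named after their values were seen. PLA2G4B, PLA2G4C, PLA2G5, ACSL3, FAM213B, DPEP1, ABCC1 and LTB4R2 were not measured here. The method was tested on simulated data. Alternatives changed the background step, the scaling, the probe filter and the probe rule, used the authors' values or the arrays of 1 time, left out arrays or experiments, or added the experiment as a block. RefSeq promoters matched 7 of 8 members by symbol.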

Additional observations from a re-analysis of the deposited data

Results flagged for a closer look

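Among the 8 genes, some effects went one way in every experiment of one setting and the opposite way in every experiment of another. This was seen 7 times. How often it occurs among all genes was not worked out, so nothing is read from that number. The differences were not tested, because the members were chosen on the same values. Some signs rest on very small effects. PTGES with ATRA at 8 h was at -0.002 in experiment 3. PLA2G4A without ATRA at 24 h was at 0.012 in experiment 2. At 8 h LTC4S was at -0.021 with ATRA in experiment 2 and at 0.013 without it in experiment 3. The experiments were told apart by title numbers. The atorvastatin effect on PTGES at 48 h was 2.20 with ATRA and -0.52 without it, a difference of 2.73, but the values without ATRA (6.25 with atorvastatin and 6.78 in control cells) lie near background, so the direction there cannot be read. With ATRA it was 2.20 at 48 h against -0.18 at 8 h, a difference of 2.38, and 1.45 at 24 h against -0.18 at 8 h, a difference of 1.63 that includes the library labelled ATRA of experiment 1 (0.73 at 24 h without the 2 libraries). For ALOX5AP the atorvastatin effect with ATRA was 0.84 at 48 h and -0.30 at 8 h, a difference of 1.14. The size of the 8 h effect on ALOX5AP depended on the scaling: it was -0.08 with median scaling and -0.30 with the authors' values. For LTC4S the atorvastatin effect was -0.13 with ATRA and 0.14 without it at 8 h, a difference of -0.27, and -0.22 with ATRA and 0.36 without it at 48 h, a difference of -0.58. With median scaling the effect with ATRA was 0.07 at 8 h and 0.05 at 48 h, so the opposite direction was lost, and the differences were -0.06 and -0.17. For PLA2G4A the atorvastatin effect without ATRA was 0.13 at 24 h, with the library labelled atorvastatin of experiment 1 (0.06 without it), and -0.20 at 8 h, a difference of 0.33.

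Of the other pathway genes, the atorvastatin effect at 48 h differed by its own test for 2, where 0.536% of all genes passed. Neither call held without experiment 1 or without experiment 2, and the DPEP2 signals lie near the probe median. That of DPEP2 was 0.91 with ATRA and -0.04 without it, a difference of 0.96 (limma, adjusted p = 0.00933), and that of FPR2 was 1.35 with ATRA and 0.08 without it, a difference of 1.27 (limma, adjusted p = 0.00323).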

How the results depend on the processing

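Without the 2 libraries, or the 1 that a contrast holds, some 24 h differences changed sign: ALOX5AP with atorvastatin against control was -0.21 (against 1.74) and in the combination against ATRA -0.04 (against 1.86), and PTGES with atorvastatin was -0.03 (against 0.75). The difference between the atorvastatin effects on PTGES at 24 h was as low as -0.02 (against 0.69), without the library labelled ATRA alone. That fit keeps the library labelled atorvastatin. Without both, the atorvastatin effect on PTGES was 0.73 with ATRA and -0.03 without it, so the effect with ATRA remained the larger. ALOX5AP with ATRA at 8 h was 2.85 with no background correction and 2.83 with the authors' values, against 3.06. PTGES with ATRA at 48 h was 2.52 with no background correction, against 2.75, and with atorvastatin at 48 h -0.345 with the authors' values. With median scaling PTGES was 2.43 in the combination against ATRA at 48 h, and the difference between its atorvastatin effects was 2.92, or 2.46 with the authors' values. With 1 array or experiment left out, PTGES ran from 0.71 to 1.21 with ATRA at 8 h and from -0.63 to -0.37 with atorvastatin at 48 h.

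Counts among the 52 other pathway genes moved more. For ATRA at 8 h, against 1, they were 2 with no background correction, 0 with median scaling and with the authors' values, 4 with the 8 h arrays alone and without the 2 libraries. For ATRA at 24 h, against 0, they were 1 with median scaling and 4 without the 2 libraries. For the combination at 24 h, against 5, they were 0 with that time alone and 9 without the 2 libraries. At 48 h they were 8 without the 2 libraries for the combination against ATRA (against 5), and 1 with that time alone for the difference of atorvastatin effects (against 2).

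The experiment as a replicate block gave 2 calls for ATRA at 8 h. Together with leaving out the 2 libraries, the replicate block gave 4 and 6 for ATRA at 8 and 24 h, 2 for atorvastatin at 48 h, 9 for the combination at 24 h and 10 for the combination against ATRA at 48 h. Arrays share only a number: of 177 same-number pairs 116 had a correlation of deviations over 0.1, with a median of 0.15 and a lowest value of -0.26, and 28 of 34 arrays correlated best with their own number.

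With 1 array or experiment left out, counts ran from 0 to 3, 0 to 5 and 3 to 9 for ATRA at 8, 24 and 48 h, and 0 to 1 for atorvastatin at 48 h. They ran from 0 to 5 and 9 to 20 for the combination at 24 and 48 h, 2 to 6 for the combination against ATRA, 7 to 15 for the combination against atorvastatin and 0 to 3 for the difference. In the combination at 48 h 7 of 17 calls held in every such fit, COTL1, FPR2, GGT5, MBOAT7, MGST2, PLA2G15 and SLCO2A1.

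Over all genes, ATRA at 8 h gave 217 calls in the fit reported, 109 to 520 in the alternatives other than leaving out an array or experiment, and 18 to 238 in those. In the same order, ATRA gave 89, 3 to 772 and 1 to 498 at 24 h, and 1224, 779 to 1804 and 544 to 974 at 48 h. Atorvastatin at 48 h gave 118, 21 to 425 and 22 to 77, and the combination gave 925, 478 to 1463 and 258 to 689 at 24 h and 3115, 2573 to 3692 and 1840 to 2610 at 48 h. The combination against ATRA gave 979, 672 to 1480 and 254 to 745, the combination against atorvastatin 2272, 1774 to 3132 and 1234 to 1814, and the difference 82, 46 to 241 and 5 to 34. With median scaling the share of higher calls was 70.6%, 98.8% and 80.7% for ATRA at 8, 24 and 48 h (against 59.9%, 75.3% and 50.5%), 52.4% for atorvastatin at 48 h (64.4%), 95.2% and 87.8% for the combination at 24 and 48 h (58.3% and 47.5%), 96.7% and 95.7% for the combination against ATRA and against atorvastatin (53.4% and 47.8%), and 99.4% for the difference (86.6%). The median of all genes under it was up to 0.164, for the difference. Signals near the probe median limit what can be said of ALOX5, PTGS2, DPEP2 and PTGER1. The same holds for PTGES and ALOX5AP in cells without ATRA, and for SLCO2A1 in cells with it. Where a call or count changed, the cause was not tested.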
